A study of Mus musculus with 18 samples.

Results

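The cytosolic ribosomal protein genes encode the proteins of the small and large subunits of the ribosome that works outside the mitochondria. Members were all protein-coding entries of the deposited table whose symbol is Rpl, Rps or Rplp followed by a number, with optional letters for paralogs. This gave 86 of the 38046 genes in the table: 49 large-subunit genes (Rpl), 34 small-subunit genes (Rps) and 3 genes of the acidic stalk (Rplp). The TPM of 180 protein-coding transcripts was summed into these 86 genes.

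Total RNA, depleted of rRNA, was sequenced from clonal lines of mouse oligodendrocyte progenitors (OPCs), from which myelinating oligodendrocytes form. The lines came from primary NSC: 3 clones were controls, named D7, D3 and E8, and 3 were null for Thap1, named 3F, D6 and 7F. THAP1 binds DNA through a zinc finger and acts on transcription. The sources used here do not state how the null clones were made or from which mice the clones came, so p-values measure the spread between clones. Each clone gave 1 library at each of 3 stages, so each of the 6 groups held 3 libraries. The OPC libraries came from growth medium with PDGF-AA. The DIV2 and DIV4 libraries came from 2 and 4 days in differentiation medium with the thyroid hormone T3 at 40 µg/ml. Stage therefore cannot be told apart from medium.

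Ribosomal protein genes are transcribed at high rates in growing cells, and most of their products are needed in equal numbers for each ribosome. Most of their mRNAs start with a run of pyrimidines, the TOP motif, through which mTOR signalling controls their translation. The genome also holds many processed pseudogenes of these genes, copied back from mRNA, some of which are transcribed or are so like the parent that short reads cannot always be assigned to one of them.

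Values are rescaled TPM: the deposited TPM of a gene divided by a median-of-ratios factor for the library. The rescaling was needed because protein-coding transcripts held 5.05% to 9.0% of TPM in the control OPC libraries and 19.1% to 38.8% in the other 15. Sequencing depth is unknown, since TPM keeps none. Thap1 itself lay between 1.88 and 4.45 rescaled TPM in the 9 control libraries and between 0.196 and 0.766 in the 9 null libraries (limma, -1.65 at OPC with adjusted p = 0.000104). Oligodendrocyte markers rose from OPC to DIV2 (6 of 6 in control, 5 of 6 in null), all 5 markers of dividing cells fell in both genotypes, and all 4 mesenchymal markers had a mean under 1. The control D3 OPC library had a summed dividing-marker level of 46.4, the lowest of the OPC libraries, although its label is OPC. Changes are differences of log2(rescaled TPM + 1), tested with limma over all 12101 genes with a mean of at least 1, and a gene was called at a Benjamini-Hochberg adjusted p under 0.05. Of the 86 members, 80 passed that filter.

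Rpl29, Rpl34 and Rpl3 stand first, because their reads may be divided with pseudogenes. RPL29, RPL34 and RPL3 are proteins of the large subunit, and RPL3 lies near the peptidyl transferase centre. Over the coding sequence, Rpl29 differs from the processed pseudogene Gm13841 at 3 of 480 bases. The table's transcript of Gm13841 is another, longer model than the GENCODE M21 one compared here. Rpl34 differs from Rpl34-ps1 at 2 of 351 bases, and Rpl3 differs from Rpl3-ps1 at 2 of 1209 bases. Stretches of 60 coding bases from GENCODE M21 on GRCm38 show how alike gene and copy are. Each is the first stretch with the most differing bases, which capitals mark, and all other bases are identical.
Rpl29 (chr9:106430308-106430367, plus strand): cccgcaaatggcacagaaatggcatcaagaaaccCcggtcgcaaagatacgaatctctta
Gm13841 (chr5:115802063-115802122, minus strand): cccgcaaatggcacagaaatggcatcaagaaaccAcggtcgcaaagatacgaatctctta
Rpl34 (chr3:130729084-130729143, minus strand): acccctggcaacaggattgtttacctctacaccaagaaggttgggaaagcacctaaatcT
Rpl34-ps1 (chr6:71124682-71124741, plus strand): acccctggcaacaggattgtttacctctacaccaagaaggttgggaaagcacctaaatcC
Rpl3 (chr15:80082523-80082582, minus strand): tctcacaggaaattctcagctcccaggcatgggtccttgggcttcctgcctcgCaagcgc
Rpl3-ps1 (chrX:13202575-13202634, plus strand): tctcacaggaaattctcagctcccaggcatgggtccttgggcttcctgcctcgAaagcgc

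Rpl29 was almost absent from the null libraries as the deposited table assigns it. At OPC its level was 304, 266 and 245 rescaled TPM in control D7, D3 and E8, against 1.90, 1.20 and 1.84 in null 3F, D6 and 7F. At DIV2 control clones held 156, 123 and 155, and null clones held 1.30, 1.45 and 1.29. At DIV4 the values were 131, 111 and 123 in control and 0.942, 1.31 and 1.33 in null. The pseudogene Gm13841 had the opposite pattern. It lay at 0.501, 2.12 and 1.20 in control OPCs and at 298, 359 and 341 in null OPCs. At DIV2 it held 197, 206 and 206 in null, and at DIV4 145, 126 and 148, while no control library exceeded 2.12. The groups did not overlap at any stage for either feature. Rpl29 was called lower in null at OPC by -6.69 ± 0.14 (SE, adjusted p = 3.18e-13), at DIV2 by -5.95 ± 0.14 (adjusted p = 1.71e-12) and at DIV4 by -5.80 ± 0.14 (adjusted p = 2.41e-12). When Rpl29 was added to all its copies, the sum differed by 0.25, 0.45 and 0.16 at OPC, DIV2 and DIV4. None of these was called by limma (adjusted p = 0.209, 0.0839 and 0.526). How reads came to be assigned to one or the other feature was not tested.

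Rpl34 and its copy Rpl34-ps1 differed in the other direction. Rpl34 held 192, 274 and 131 in control D7, D3 and E8 at OPC and 426, 542 and 588 in null 3F, D6 and 7F. Rpl34-ps1 held 210, 369 and 160 in the control OPCs and at most 1.21 in the null libraries of any stage. At DIV2 Rpl34 was 128, 110 and 110 in control and 323, 296 and 287 in null, and the copy was 172, 148 and 149 in control. Every null library was above every control library of its stage for Rpl34, and every one was below for the copy. Rpl34 was called higher in null at OPC (1.43 ± 0.21, adjusted p = 0.000864), DIV2 (1.38 ± 0.21, adjusted p = 0.00167) and DIV4 (0.91 ± 0.21, adjusted p = 0.0239). The sum of Rpl34 and its copies differed by 0.28, 0.15 and -0.32, and none of these passed limma's test (adjusted p = 0.43, 0.842 and 0.452). The DIV4 call for Rpl34 was lost without control D7 (adjusted p = 0.0569), null 3F (0.119), null D6 (0.0793) or null 7F (0.189).

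Rpl3 shared its summed level with a copy in the null clones. In control OPCs it held 545, 676 and 440, and in null OPCs 267, 256 and 301. Rpl3-ps1 lay at or under 1.80 in all control libraries and at 266, 295 and 337 in the null OPCs, so gene and copy held about equal amounts there. The same held at DIV2, where Rpl3 was 128, 145 and 140 and the copy 140, 151 and 156 in null, against 250, 253 and 254 for Rpl3 in control. Rpl3 was called lower in null at OPC (-0.99 ± 0.16, adjusted p = 0.00183), DIV2 (-0.87 ± 0.16, adjusted p = 0.00904) and DIV4 (-1.17 ± 0.16, adjusted p = 0.00099). The sum differed by 0.07, 0.18 and -0.09, with limma's adjusted p at 0.828, 0.683 and 0.802. The DIV2 call for Rpl3 was lost without null 3F (adjusted p = 0.124) or null 7F (0.0977). For all 3 genes the difference in the gene was thus met by an opposite one in a nearly identical copy, and the summed level was not called different at any stage.

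**Figure D1:**
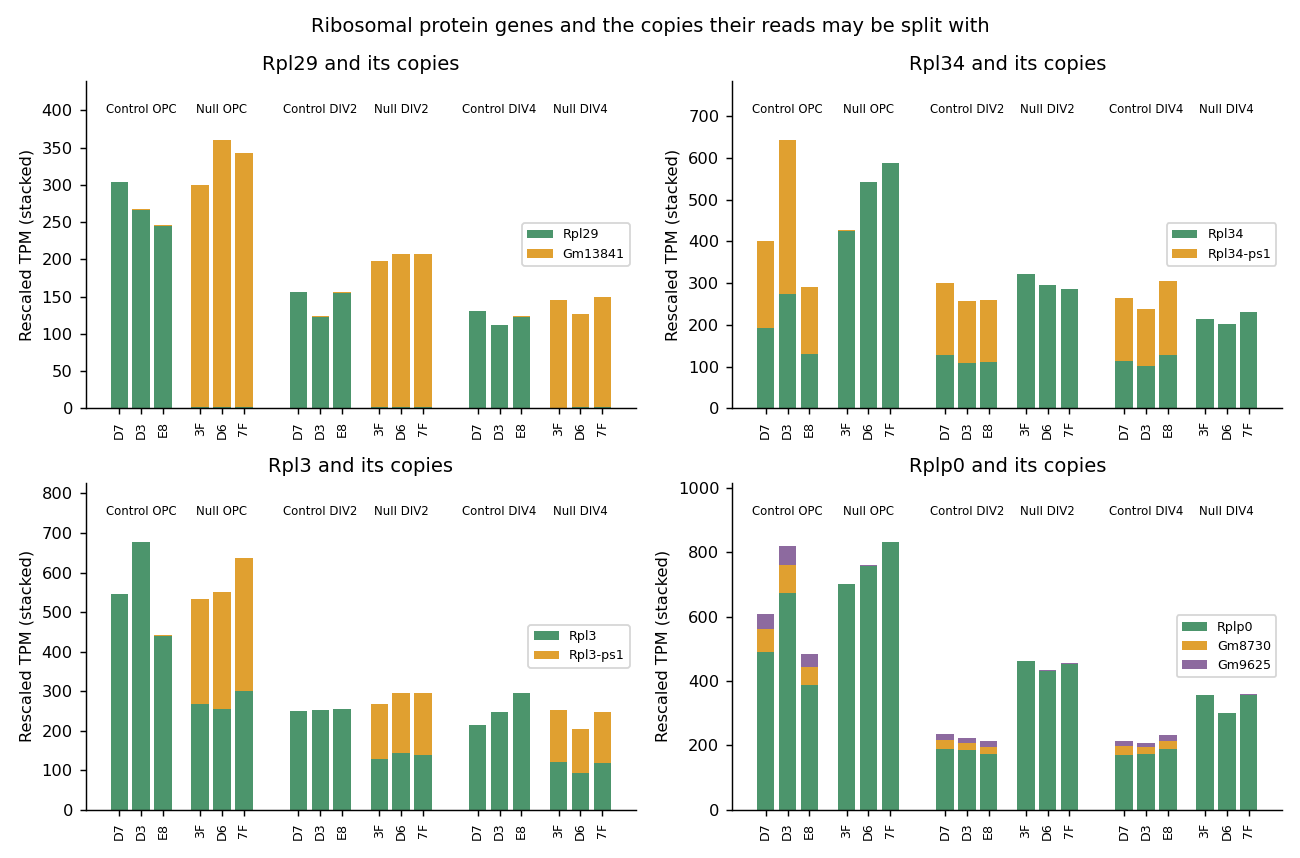
Stacked rescaled TPM (y axis) of Rpl29, Rpl34, Rpl3 and Rplp0 and their main copies in each of the 18 libraries (x axis, by clone, grouped by genotype and stage). Rpl29 in control gives way to Gm13841 in null, Rpl34-ps1 is seen in control and Rpl3-ps1 in null, and the copies of Rplp0 are seen in control.

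The stalk proteins P0, P1 and P2 (Rplp0, Rplp1 and Rplp2) form the flexible arm of the large subunit that recruits elongation factors. Rplp0 was the one member called higher in null at DIV2 after copies were added (1.76% of all genes were). It held 491, 672 and 388 in control D7, D3 and E8 at OPC and 701, 758 and 832 in null 3F, D6 and 7F. At DIV2 it held 190, 185 and 172 in control and 462, 433 and 454 in null, and at DIV4 170, 174 and 190 in control and 355, 300 and 358 in null. The groups did not overlap at any stage. Rplp0 was called higher at OPC (0.60 ± 0.17, adjusted p = 0.0306), DIV2 (1.30 ± 0.17, adjusted p = 0.000406) and DIV4 (0.92 ± 0.17, adjusted p = 0.00623), which at DIV2 is a 2.46-fold difference. Its processed pseudogenes Gm8730 and Gm9625 held 28.2, 22.6 and 23.9 and 16.9, 15.4 and 18.4 in control at DIV2 and at most 0.44 in null. With all copies added, the difference was 0.30 at OPC (adjusted p = 0.244, not called), 1.0 ± 0.16 at DIV2 (adjusted p = 0.00288) and 0.62 ± 0.16 at DIV4 (adjusted p = 0.039). In limma fits the OPC call was also lost without any one of the clones D7, E8, 3F, D6 and 7F (adjusted p from 0.0648 to 0.206). The DIV4 call was lost without null 3F (0.0727) or null 7F (0.102).

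Rplp0 and Gm8730 differ at 12 of 951 coding bases, more than the pairs above, and Gm9625 was not aligned. Whether reads were divided between Rplp0 and its copies was not tested. The densest 60-base stretch, with differing bases in capitals, reads as follows.
Rplp0 (chr5:115561168-115561227, plus strand): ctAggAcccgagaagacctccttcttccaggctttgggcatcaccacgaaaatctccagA
Gm8730 (chr8:102865352-102865411, minus strand): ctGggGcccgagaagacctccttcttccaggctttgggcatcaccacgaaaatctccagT

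Rplp0 lies on chromosome 5, and Gm13841, the copy of Rpl29, lies 238 kb from it. Among the 30 other genes tested within 1 Mb of Rplp0, 4 were called between genotypes at OPC (13.3%), 2 at DIV2 (6.67%) and 4 at DIV4 (13.3%), Gm13841 among them each time. Over all genes tested the same shares were 12.4%, 3.02% and 5.31%.

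Rplp1 and Rplp2 were not called between genotypes at any stage, and whether they differ from Rplp0 was not tested. Rplp1 held 1192, 1389 and 1053 in control and 952, 1419 and 1244 in null at OPC, where the groups overlapped. At DIV2 it held 528, 490 and 549 in control and 669, 777 and 629 in null, a difference of 0.40 ± 0.18 that was not called (adjusted p = 0.297). Rplp2 differed by 0.39 ± 0.15 at DIV2 (adjusted p = 0.228), with control libraries at 221, 187 and 183 and null libraries at 234, 300 and 242. At DIV2 every null library lay above every control library for both genes.

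The largest movement of the family was a fall from OPC to DIV2. In control 65 of the 80 members were called lower and none higher, where 18% of all genes tested were called lower. In null 59 of 80 were called lower and none higher, where 14.1% of all genes were (28.9% in either direction, and 36.4% in control). The median change of the members was -0.99 in control and -0.77 in null, beside 0.01 and -0.03 over all genes. The members called lower in both genotypes numbered 57, which is 87.7% of those in control and 96.6% of those in null, and 13 were called in neither. All parts of the ribosome took part: in control 36 of 46 large-subunit genes, 26 of 31 small-subunit genes and 3 of 3 stalk genes fell, and in null 35, 21 and 3 fell. Over all genes, 18.4% rose in control. In bulk RNA, fewer cells of a type and less RNA per cell cannot be told apart.

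**Figure D2:**
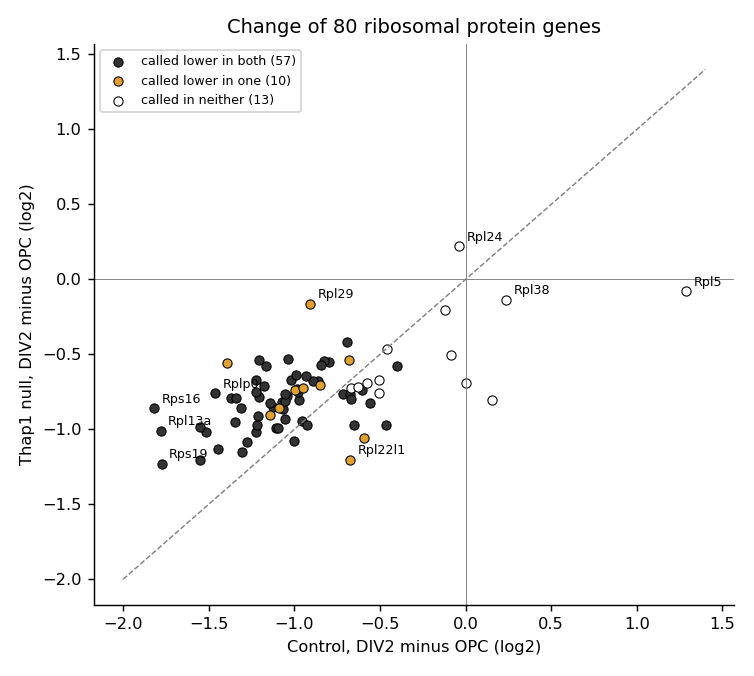
Change from OPC to DIV2 on the log2(rescaled TPM + 1) scale of each of the 80 tested ribosomal protein genes in control (x axis) and Thap1 null (y axis), with the line of equal change dashed. Most genes lie in the lower left, 57 called lower in both genotypes, and Rpl5, Rpl24 and Rpl38 lie apart.

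The largest falls in control were those of Rps16, Rpl13a and Rps19. RPS19 is a small-subunit protein needed for maturation of 18S rRNA and the most often mutated gene product in Diamond-Blackfan anaemia. Rps19 went from 511, 612 and 454 in control D7, D3 and E8 at OPC to 156, 155 and 145 at DIV2 (-1.77 ± 0.17, adjusted p = 1.56e-05, 3.42-fold). In null it went from 384, 541 and 500 in 3F, D6 and 7F to 180, 219 and 203 (-1.23 ± 0.17, adjusted p = 0.000216), the largest fall in that genotype. RPL13A is a large-subunit protein also known for a role in silencing mRNAs after interferon-gamma. Rpl13a went from 399, 616 and 283 to 121, 127 and 111 in control (-1.78 ± 0.22, adjusted p = 5.8e-05). In null it went from 250, 336 and 298 to 152, 148 and 135 (-1.01 ± 0.22, adjusted p = 0.00355). Rps16, of the small subunit, went from 128, 179 and 120 to 43.7, 34.6 and 39.1 in control (-1.82 ± 0.24, adjusted p = 8.4e-05). For Rps16, 73.5% of the summed level of gene and copies lay in the copies, so its own change rests on the smaller part of the reads. For each of these genes every DIV2 library lay below every OPC library of its genotype.

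In null the next largest falls were those of Rpl22l1 (-1.20 ± 0.28, adjusted p = 0.00507) and Rpl21 (-1.20 ± 0.15, adjusted p = 0.000107). Rpl21 held 175, 255 and 223 in null OPCs and 84.0, 103 and 92.9 at DIV2. For Rpl21, 47.7% of the summed level of gene and copies lay in copies, and the change of that sum is not given. The call for Rpl22l1 was lost without null 3F (adjusted p = 0.0566) or null 7F (0.0913). The stalk genes fell in both genotypes: Rplp0 by -1.46 and -0.76, Rplp1 by -1.20 and -0.79, and Rplp2 by -1.20 and -0.54, in control and null in turn.

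Members that share few 31-base words with other genes were looked at apart, though a low share does not exclude divided reads. Rps3 shares 8.72% of its 31-base words with other genes, Rpl22 9.78% and Rpl8 9.99%. Rpl8, a large-subunit protein, held 624, 578 and 514 in control OPCs and 275, 243 and 257 at DIV2, and in null 493, 570 and 536 and then 284, 305 and 314. Of the 21 tested members sharing under 30% of their words, 20 fell in control and 19 in null, and of the 59 that share more, 45 and 40 fell. With closest copies added to each member, 73 of 82 fell in control and 69 of 82 in null, where 17.8% and 14.1% of all genes did.

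A few members did not follow. Rpl24 was at 3.67, 4.03 and 3.92 in control OPCs and 3.46, 4.22 and 3.60 at DIV2, far below Rpl22 and Rpl8, and was not called in either genotype (-0.04 and 0.22). Rpl5 held 30.9, 37.3 and 2.75 in control OPCs, so that clone E8 stood apart, and 90.5% of its summed level lay in copies. Its change in control was 1.29 ± 0.58 and was not called (adjusted p = 0.0986). Rpl38 held 748, 705 and 350 in control OPCs and 1030, 506 and 582 at DIV2, with overlap of the stages, and was not called. Rpl5, Rpl24 and Rpl38 were named because of these values.

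The count depended on scale, on clones and on the groups fitted. A fit on the groups compared only called fewer members in control, a count given in the closing section. On deposited TPM without rescaling, 78 of 80 members were called higher at DIV2 in control, where 83.1% of all genes were. The members' median was then 1.76 against 1.93 over all genes, and in null no member was called (3.57% of all genes were called lower). Relative to protein-coding TPM, 3 members were called higher and 11 lower in control (median -0.28 against 0.62 over all genes), and 15 lower in null (-0.56 against 0.11). In the control OPC libraries 17.5% to 52.1% of that protein-coding TPM was held by Lars2 and AA474408. Quantile normalization gave 1 higher and 44 lower in control and 21 lower in null. For protein-coding TPM, quantile normalization and fits without a clone, the share of all genes called is not given. Those counts alone do not show a change particular to the family. The members' median was below that of all genes on every scale. Without control D3, whose OPC library had few dividing-cell transcripts, 52 members were called lower and 1 higher in control, with a median of -0.81. In null the count fell to 39 without 3F, 34 without D6 and 26 without 7F. All 5 dividing-cell markers were called lower at DIV2 in both genotypes, but not every clone moved alike. In control D3 their sum was 46.4 at OPC and 43.6 at DIV2, and it fell clearly in every other clone. The members' share of protein-coding TPM without Lars2 and AA474408 went from 17.9% to 8.11% in D3. The part of the dividing-cell markers in the result was not tested.

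**Figure D3:**
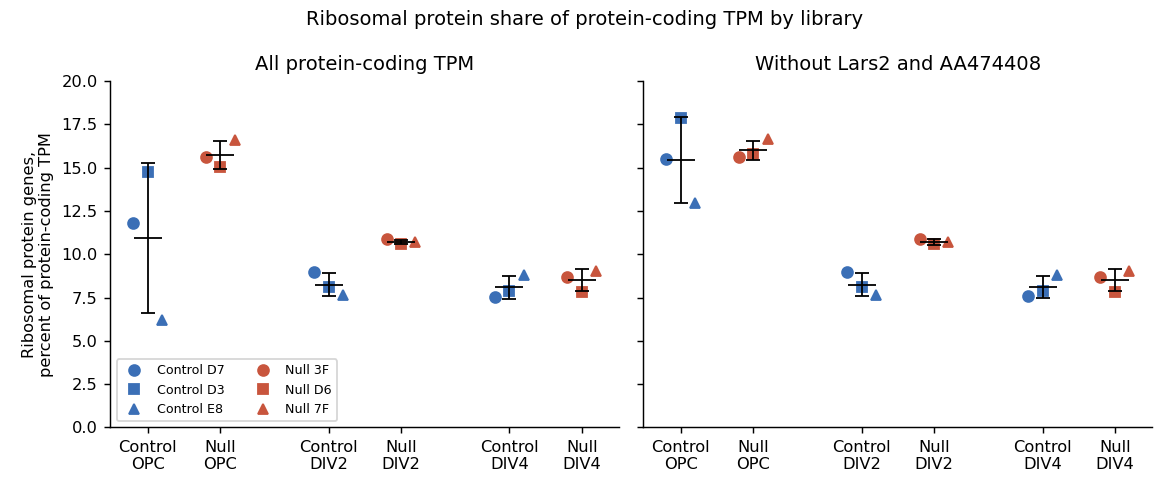
Share of protein-coding TPM held by the 86 ribosomal protein genes in each library (points, by clone), with group mean and SD (bars, n = 3), over all protein-coding TPM (left) and without Lars2 and AA474408 (right). At DIV2 the null clones (10.6% to 10.9% in the left panel) lie above the control clones (7.64% to 8.99%).

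The share of protein-coding TPM held by the family was lower at each later stage in every null clone, but not in every control clone. In null it was 15.6%, 15.0% and 16.6% at OPC in 3F, D6 and 7F (15.7% ± 0.808, SD, n = 3), 10.9%, 10.6% and 10.7% at DIV2 (10.7% ± 0.14) and 8.71%, 7.81% and 9.03% at DIV4 (8.52% ± 0.632). In control it was 11.8%, 14.7% and 6.21% at OPC in D7, D3 and E8 (10.9% ± 4.34), 8.99%, 8.10% and 7.64% at DIV2 (8.24% ± 0.683) and 7.56%, 7.89% and 8.80% at DIV4 (8.08% ± 0.645). The control OPC libraries varied most and overlapped those of DIV2, and in E8 the share was lowest at OPC and highest at DIV4. There Lars2 and AA474408, which are annotated as protein-coding, held 17.5% to 52.1% of protein-coding TPM, against at most 4.97% in every other library. Without them the share was 15.4% ± 2.47 in control OPCs and 16% ± 0.549 in null OPCs, a difference smaller than the spread of the control clones. Control D7, D3 and E8 then held 15.5%, 17.9% and 13.0% at OPC and 8.99%, 8.11% and 7.64% at DIV2, without overlap of the stages. In E8 the share was then highest at OPC, with 8.80% at DIV4. At DIV2 the null share lay above the control share in every clone, and at DIV4 the groups overlapped. The balance of the subunits was steady: large-subunit genes held 52.1% to 54.2% of the family's TPM and small-subunit genes 40.3% to 41.7% as group means.

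From DIV2 to DIV4 the genotypes were compared with their own DIV2 libraries. In control no member was called by limma (median -0.06; 1 member at an unadjusted p under 0.05; 0.364% of all genes called in either direction). In null 8 of 80 members were called lower and none higher, where 1.24% of all genes were called lower and 1.26% higher. The median in null was -0.51, with 77 of 80 members negative, beside -0.02 over all genes. The summed level of the 4 astrocyte markers was 6.20 to 10.02 in null at DIV2 and 85.7 to 141 at DIV4, mostly Gfap (1.95, 6.26 and 3.16, then 81.3, 78.8 and 135 in 3F, D6 and 7F). By limma none of the 3 tested was called. In control the sum was 0.774 to 44.5 at DIV2 and 1.63 to 320 at DIV4, and its part in the result was not tested. Rpl10a had the largest called change, from 19.0, 26.9 and 28.6 in 3F, D6 and 7F at DIV2 to 5.30, 5.36 and 4.67 at DIV4 (-2.06 ± 0.34, adjusted p = 0.0082). RPL10A is a large-subunit protein at the L1 stalk, and 91.1% of the summed level of Rpl10a and its copies lay in the copies. With them added the change was -0.46 and was not called (limma, adjusted p = 0.19). Rpl7 went from 413, 529 and 546 to 237, 232 and 263 (-1.01 ± 0.21, adjusted p = 0.0255), and Rps19 from 180, 219 and 203 to 109, 117 and 141 (-0.71 ± 0.17, adjusted p = 0.0471). No member was called when any one null clone was left out, and 14, 19 and 16 were called without control D7, D3 and E8. A fit on these groups alone called 61.

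The difference between the courses of the genotypes was tested as an interaction. For DIV4 against DIV2 the change in null minus that in control had a median of -0.46 over the members, with 75 of 80 negative, beside -0.01 over all genes. No member was called by limma (lowest adjusted p = 0.47), 18 had an unadjusted p under 0.05, and 0.0331% of all genes were called. For DIV2 against OPC the median was 0.24, no member was called (lowest adjusted p = 0.0947), 13 had an unadjusted p under 0.05, and 0.62% of all genes were called. Leaving out control D3 gave 1 call and a median of 0.03, and on deposited TPM 77 were called lower, where 72.5% of all genes were. That the fall in null was later than in control was therefore not shown gene by gene.

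At DIV2 most members had a higher rescaled level in every null clone than in any control clone, and 4 of 80 passed the test. Of the 80 members, 61 (76.2%) had all 3 null clones above all 3 control clones, where 15.6% of all genes tested did, and 2 (Rpl29 and Rpl3) had all null clones below, where 15.8% did. The median difference was 0.37 with 72 of 80 members positive, beside 0.00 over all genes. By limma, 2 members were called higher (Rpl34 and Rplp0, where 1.83% of all genes were) and 2 lower (Rpl29 and Rpl3, where 1.19% were). A further count, of members at an unadjusted p under 0.05, gave 36 of 80 (15.2% of all genes). The count without overlap was 70 of 82 (85.4%, against 15.5% of all genes) with closest copies added and 60 of 80 (75%, against 11.1%) relative to protein-coding TPM. It was 26 of 80 (32.5%, against 6.2%) on deposited TPM and 21 of 80 (26.2%, against 14%) after quantile normalization. By limma on deposited TPM 1 member was called lower (0.893% of all genes). The number called was 8 without control D7 and 7 without null D6. The summed level of the 5 dividing-cell markers was 29.6 to 43.6 in control and 43.5 to 61.2 in null at DIV2, and that of the 5 OPC markers 207 to 390 and 147 to 191. The part of either in the result was not tested.

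Single members show the size of this difference. Rpl8 held 275, 243 and 257 in control D7, D3 and E8 at DIV2 and 284, 305 and 314 in null 3F, D6 and 7F (0.22 ± 0.12; limma, adjusted p = 0.432). Rps3, which lies at the mRNA entry channel, held 198, 186 and 178 in control and 230, 251 and 226 in null. In both the groups do not overlap, and neither was called.

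**Figure D4:**
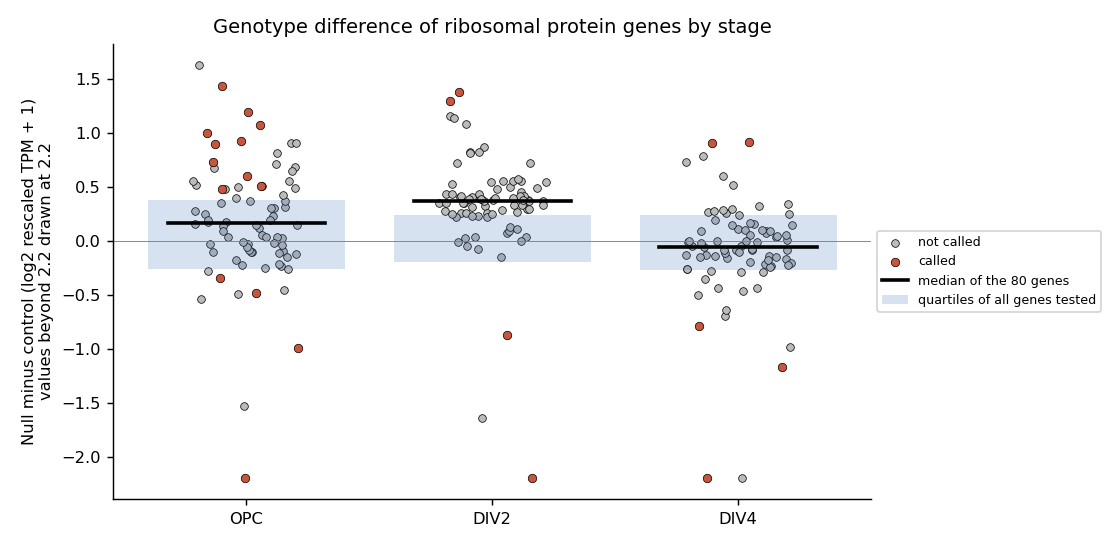
Null minus control difference on the log2(rescaled TPM + 1) scale (y axis) of each of the 80 tested ribosomal protein genes at OPC, DIV2 and DIV4 (x axis), with called genes in red, the members' median as a line and the middle range of all genes tested as a band. The median is 0.16 at OPC, 0.37 at DIV2 and -0.06 at DIV4.

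At OPC and DIV4 fewer members had rescaled levels wholly above control. At OPC 15 members (18.8%) had all null clones above control, where 13.9% of all genes did, and 6 (7.5%) had all below, where 12.5% did. The OPC counts depended on the scale. After quantile normalization 9 (11.2%, against 11% of all genes) lay above and 22 (27.5%, against 16.4%) below. Relative to protein-coding TPM 33 (41.2%, against 26.2%) lay above and 1 (1.25%, against 3.46%) below, and on deposited TPM 76 (95%, against 84.8%) and 1. At DIV4 4 members (5.0%) lay wholly above, where 13.8% of all genes did, and 15 (18.8%) wholly below, where 13.9% did. Relative to protein-coding TPM 15 (18.8%, against 15.8%) lay above and 8 (10%, against 8.97%) below. By limma, 10 members were called higher at OPC and 4 lower, where 6.39% and 6.01% of all genes were. A fit on the groups compared only called 1 member at OPC. At DIV4 2 were called higher and 3 lower, where 2.96% and 2.35% of all genes were. The DIV4 count was 9 without control D3, and 2 without null 3F or without null 7F. On deposited TPM 1 was called lower at DIV4 (1.87% of all genes).

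Besides the genes above, those named at OPC were Rpl10, Rpl36al and Rpl7a. Rpl10, whose protein joins the large subunit late, held 62.2, 176 and 40.0 in control and 169, 155 and 207 in null. It was called higher (1.19 ± 0.36, adjusted p = 0.0441), but control D3 lay within the null range, and with its copies added the difference was 0.47 (adjusted p = 0.0762, not called). Its call was lost without any one of the clones D7, E8, 3F, D6 and 7F (limma, adjusted p from 0.107 to 0.232). Rpl7a held 791, 928 and 718 in control and 512, 604 and 623 in null and was called lower (-0.48 ± 0.14, adjusted p = 0.0419), a call lost without any one clone (adjusted p from 0.0529 to 0.202). The direction for Rpl7a turned on deposited TPM (1.67), where all genes had a median of 1.47. The OPC counts rested on single clones too: 6 members were called without control E8, 5 without null 3F, 7 without D6 and 3 without 7F. Quantile normalization gave 3 higher and 10 lower, and with closest copies added 6 were higher and 2 lower (6.32% and 5.97% of all genes). On deposited TPM 78 were higher and 1 lower, where 80.7% of all genes were called higher and 0.311% lower, and relative to protein-coding TPM 25 were higher and 1 lower. The share of all genes called is not given for quantile normalization, protein-coding TPM or fits without a clone, so those counts cannot be set against it.

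Paralogs are encoded by genes of their own and can replace or add to a core protein. Rps27l, a paralog of Rps27 known as a p53 target, was called higher in null at OPC and lower at DIV4. At OPC it held 132, 114 and 140 in control D7, D3 and E8 and 158, 193 and 198 in null 3F, D6 and 7F (0.50 ± 0.16, adjusted p = 0.0471). At DIV2 the groups overlapped at 94.8, 85.8 and 97.2 and 92.2, 99.4 and 86.2. At DIV4 it held 93.7, 87.4 and 133 in control and 53.7, 64.1 and 60.3 in null (-0.79 ± 0.16, adjusted p = 0.0101). The OPC call was lost without any one of D7, D3, 3F, D6 and 7F (limma, adjusted p from 0.0645 to 0.253), and the DIV4 call without 3F (0.0928) or 7F (0.106). With closest copies added, Rps27l kept both calls (0.50 and -0.79). It fell from OPC to DIV2 in both genotypes, by -0.47 in control and -0.97 in null. Its change from DIV2 to DIV4 differed between genotypes by -0.79 ± 0.22, which was not called (adjusted p = 0.47).

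Rpl7l1, Rpl22l1 and Rpl36al were the other paralogs tested. Rpl7l1, related to Rpl7 and known as a factor of large-subunit assembly, held 35.2, 36.2 and 30.4 in control OPCs and 25.3, 28.7 and 25.2 in null OPCs (-0.35 ± 0.10, adjusted p = 0.0292). That call was lost without D3 (adjusted p = 0.0746), 3F (0.148) or 7F (0.209), and its direction turned on deposited TPM (1.65) and relative to protein-coding TPM (0.08). Rpl22l1, the paralog of Rpl22, was not called between genotypes at any stage (0.48, -0.05 and -0.70). Rpl36al held 175, 152 and 166 in control OPCs and 439, 215 and 437 in null OPCs, a difference of 1.07 ± 0.33 (adjusted p = 0.0497). It was not called without D7, D3, E8, 3F or 7F (limma, adjusted p from 0.0768 to 0.261), nor with its copies added (0.0505), whereas without D6 it was called at DIV2 (1.36) and DIV4 (0.95) also. Rpl3l, Rpl10l and Rpl39l, paralogs known from muscle and testis, had means of at most 0.0285 and did not pass the filter.

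**Figure D5:**
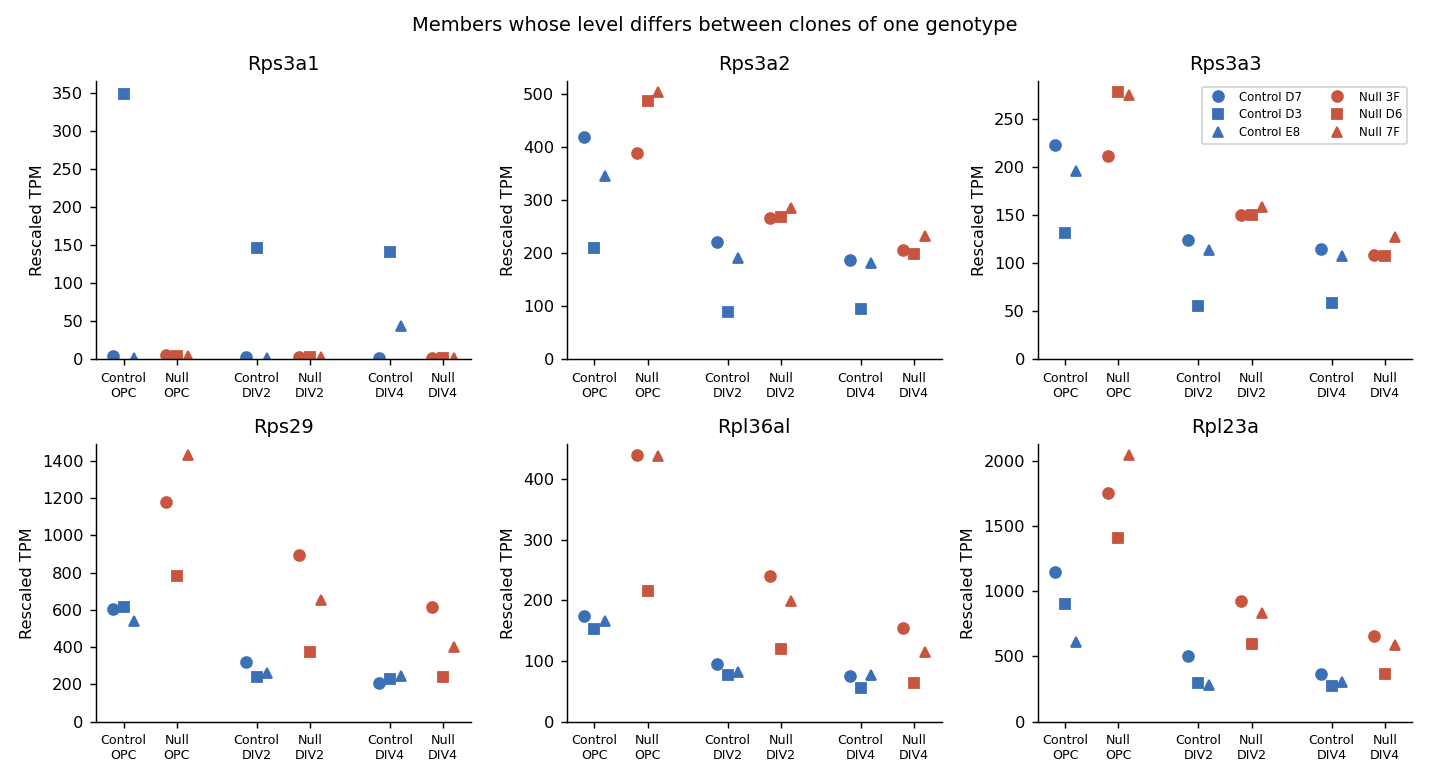
Rescaled TPM (y axis, from 0) of Rps3a1, Rps3a2, Rps3a3, Rps29, Rpl36al and Rpl23a in each library (points, by clone) by genotype and stage (x axis). Rps3a1 is high in control D3, where Rps3a2 and Rps3a3 are low, and Rps29, Rpl36al and Rpl23a are lower in null D6 than in null 3F and 7F.

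Some members differed between clones of one genotype at every stage, a pattern described after the values were seen. Rps3a1, which encodes the small-subunit protein RPS3A, held 349, 146 and 141 in control D3 at OPC, DIV2 and DIV4. It held 43.9 in control E8 at DIV4 and at most 5.89 in each of the other 14 libraries. Rps3a2 and Rps3a3, which differ from Rps3a1 at 4 and 9 of 792 coding bases, were lowest in D3. Both are members because the deposited table lists them as protein-coding, but GENCODE M21 annotates them as processed pseudogenes. Rps3a2 held 209 in D3 at OPC against 418 and 345 in D7 and E8, and 88.7 against 221 and 191 at DIV2. The sum of the 3 members was 645, 689 and 542 in control D7, D3 and E8 at OPC and 347, 290 and 307 at DIV2, so D3 did not stand apart. Stretches of 60 bases, with differing bases in capitals, show the likeness of the first pair.
Rps3a1 (chr3:86138488-86138547, minus strand): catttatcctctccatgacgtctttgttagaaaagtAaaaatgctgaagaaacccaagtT
Rps3a2 (chr14:88123141-88123200, minus strand): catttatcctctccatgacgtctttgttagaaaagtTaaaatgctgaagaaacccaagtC

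Rps29, Rpl36al and Rpl23a separated the null clones. For Rps29, 54.8% of the summed level of gene and copies lay in copies, against 0.0754% for Rpl36al and 0.833% for Rpl23a. The sum of Rps29 and its copies is not given by clone, so its clone difference is stated for the gene as listed only. Rps29 (chr12:69157722-69159186) and Rpl36al (chr12:69182731-69184083) lie close together, so they may not be independent cases, which was not tested. Rps29, a zinc-binding protein of the small subunit, held 1179, 779 and 1430 in null 3F, D6 and 7F at OPC, 892, 376 and 653 at DIV2 and 613, 242 and 401 at DIV4. In control it held 538 to 618, 242 to 323 and 208 to 246. It was not called between genotypes (0.90, 1.13 and 0.78; limma, adjusted p = 0.0908, 0.097 and 0.198), and at DIV4 null D6 lay among the control clones. Rpl23a, a large-subunit protein at the exit of the nascent chain, held 1754, 1408 and 2040 in null OPCs and 1148, 901 and 608 in control OPCs and was called higher there (1.0 ± 0.30, adjusted p = 0.0434). Fits without a clone are not given for Rpl23a, so how far this call rests on a single clone is not known.

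The 6 members that did not pass the filter include Rps12 and Rps27, which every ribosome holds. Both were near 0 in all libraries, at most 0.152 for Rps12 and 0.000521 for Rps27. A copy elsewhere in the genome holds nearly all or all of each coding sequence: Rps27 and Gm9846 have the same 252 coding bases, and Rps12 and Rps12-ps3 the same 396 aligned coding bases of 411. Gm9846 held 1113, 1853 and 634 in control OPCs and 607, 483 and 491 at control DIV2. Rps12-ps3 held 1044, 1029 and 871 and then 401, 402 and 367. For 10 members more than 90% of the summed level lay in copies: Rps27, Rps12, Rpl12, Rpl31, Rps13, Rpl27a, Rpl27, Rps6, Rpl10a and Rpl5. The level listed for these members is a small part of what the table gives to gene and copies together. Members were not counted as copies of each other. Rps3a1 is therefore not in that list, although Rps3a2 and Rps3a3 are nearly identical to it, and sums with copies keep these members apart. Rpl10l, Rpl39l, Rpl3l and Rps4y2 were the other genes under the filter.

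Genes of related function were compared from OPC to DIV2, when 18% of all genes were called lower and 18.4% higher in control, and 14.1% and 14.8% in null. Gnb2l1, which encodes the small-subunit scaffold RACK1 and was chosen after its values were seen, went from 612, 660 and 302 to 254, 181 and 181 in control (-1.29 ± 0.24, adjusted p = 0.00102) and from 590, 678 and 713 to 369, 350 and 381 in null (-0.84 ± 0.24, adjusted p = 0.0164). Of 18 translation factors and other TOP genes, 17 fell in control and 14 in null, with medians of -0.93 and -0.61. Eef1a1, elongation factor 1A, fell by -1.12 and -0.74, and Eif4b, a helper of the eIF4A helicase, by -1.19 and -0.73. None of these 18 was called between genotypes at OPC, DIV2 or DIV4, where 12.4%, 3.02% and 5.31% of all genes were. Of 28 genes of ribosome biogenesis, 17 fell and 1 rose in control and 10 fell and 1 rose in null. The gene that rose in both was Sbds, a factor of late large-subunit maturation (0.74 and 0.97). Between genotypes 1 of the 28 was higher and 5 lower in null at OPC, 1 was higher at DIV2, and 5 were higher at DIV4.

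The mitochondrial ribosome translates the few mitochondrial mRNAs. Of 75 of its genes tested, 19 fell from OPC to DIV2 in each genotype, with medians of -0.28 in control and -0.26 in null, where 18% and 14.1% of all genes fell. The difference from the cytosolic members was not tested. Their share of protein-coding TPM was 0.613% ± 0.0389 in control and 0.674% ± 0.0528 in null at DIV2. Of 13 tested regulators of ribosomal protein synthesis, 3 fell (Myc, Larp1 and Eif4ebp1) and 2 rose (Larp4 and Mtor) in control, with a median of 0.19, and in null 1 rose (Mdm2) and none fell. Myc, the transcription factor that drives ribosome production, fell in control from 30.4, 30.3 and 26.9 to 4.12, 7.37 and 4.35 (-2.30 ± 0.39, adjusted p = 0.000506). In null Myc went from 17.1, 11.4 and 16.5 to 14.2, 8.28 and 11.7 and was not called (-0.38 ± 0.39, adjusted p = 0.511). Larp1, which binds TOP mRNAs, fell in control (-1.01 ± 0.27, adjusted p = 0.00922), and its change in null was -0.53 and not called. The interaction was 1.92 ± 0.55 for Myc (limma, adjusted p = 0.123) and 0.49 ± 0.38 for Larp1 (adjusted p = 0.613), so neither change was called different between genotypes.

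Promoters of 63 of the 86 members were found among the RefSeq promoters of GRCm38.p6, which run from 250 bases before to 50 after a transcription start. The member promoters held CCGGAA, the core of ETS family sites, on either strand in 46.7% (35 of 75), against 14.9% of all promoters of that length. A run of at least 8 pyrimidines within 25 bases of the start, on the coding strand, was found in 45.3% (34 of 75) against 19.7% of all. AAGATGG, a YY1 core, was found on either strand in 16% (12 of 75) against 6.34%. TNNGGGCA, a core reported for THAP1 binding, was found on either strand in 12% (9 of 75) against 13.9%. A match is a description of these letters and does not show binding. Stretches of 70 bases, from 50 before to 20 after the start, are shown for the genes with the largest falls in control that have a promoter entry with 1 start and for Rplp0. Capitals mark the longest pyrimidine run near the start.
Rpl13a (chr7:45128726-45128795, minus strand): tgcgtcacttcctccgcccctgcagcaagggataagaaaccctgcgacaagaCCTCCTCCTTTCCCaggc
Rps16 (chr7:28350639-28350708, plus strand): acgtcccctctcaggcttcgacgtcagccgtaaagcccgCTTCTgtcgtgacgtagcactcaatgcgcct
Rplp0 (chr5:115559417-115559486, plus strand): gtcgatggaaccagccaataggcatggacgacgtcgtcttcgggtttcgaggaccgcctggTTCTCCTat

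The run in Rpl13a is 14 bases long, that in Rps16 5 and that in Rplp0 7. None of the 3 promoters holds TNNGGGCA or CCGGAA, and Rpl13a and Rps16 hold AAGATGG.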

How the data were processed

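RNA was extracted from cell pellets and made into rRNA-depleted, stranded total RNA libraries, per the labels' protocols. The authors deposited TPM, a length-scaled measure of transcript abundance, for 93666 Ensembl transcripts, noncoding features included, with each library summing to 1000000. The authors' deposited table also lists transcript length, another value that was used only to identify transcripts. The submitters' processing notes name STAR, Picard and the build mm10 without their roles, and the quantifier is not given in the sources used here. TPM keeps no read depth, so no counting intervals are given and no count test was run.

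Protein-coding transcripts were summed by gene, and 150 transcript names turned into dates were restored. Each library was divided by a median-of-ratios factor over 11098 genes. limma 3.58.1 (R 4.3.3) was fitted to log2(rescaled TPM + 1) of 12101 genes with a mean of at least 1, with the 6 groups of 3 libraries as cell means, trended variance and Benjamini-Hochberg adjustment within each comparison at 0.05. Fold changes on this scale understate those of low genes. On simulated data, 52% of changes of 1 and 84% of changes of 2 (log2) were recovered for null minus control at DIV2 over 12101 genes, with 7.48% of calls false. The simulated noise was independent between libraries, with the same spread in all groups for a given gene. It held no unequal spread between groups and no likeness of a clone across stages, so these rates may not hold for the real data. Copies of members were found by shared 31-base words among GENCODE M21 transcripts, which hold 96.5% of the transcript identifiers in the table. Promoters came from RefSeq. Python 3.11.15, numpy 2.4.6, pandas 2.3.3 and matplotlib 3.10.9 were used.

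The members and gene lists were chosen with earlier results of these data known. Genes named are Rpl29, Rpl34, Rpl3, the stalk genes, the paralogs, and the 3 called members with the largest change in each direction among those with a mean of at least 5 in each comparison; others are said to be chosen by their values. Alternatives were other scalings, pseudocounts and filters, fits on the groups compared only, other ways of summing copies, a clone block, and each clone left out. Adding the closest copies and leaving out Lars2 and AA474408 were chosen after seeing the data. The same clone was sampled at each stage, so clone numbers pair the stages: the mean correlation of deviations was 0.118 for the same clone and -0.0589 for other clones. Deviations from a group mean cancel across its clones, so the second value largely follows from the first.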

Additional observations from a re-analysis of the deposited data

How the results depend on the processing

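With clone as a replicate block, the members called numbered 14 between genotypes at OPC, 5 at DIV2 and 5 at DIV4, 65 in control and 62 in null from OPC to DIV2, and 8 in null from DIV2 to DIV4, and no count moved by over 1.5 times. Counts that moved are given next, and the cause was not tested unless fewer samples or genes entered the fit. Where the share of all genes called is not given above, a count alone does not show a change particular to the family. Between genotypes at OPC, 79 members were called on deposited TPM, 26 relative to protein-coding TPM, 13 after quantile normalization, 7 without a filter, 1 in a fit on the groups compared only and 8 with closest copies (3 to 17 on leaving out a clone, among them 6 without control E8, with fewer higher than lower). At DIV2 it was 1 on deposited TPM, 2 with named pseudogenes added and 1 with closest copies (3 to 8). At DIV4 it was 1 on deposited TPM, 3 on the groups compared only and 3 with closest copies (2 to 9). From OPC to DIV2, control gave 78 on deposited TPM, 14 relative to protein-coding TPM and 41 on the groups compared only (53 to 65), and null gave 0, 15 relative to protein-coding TPM and 21 after quantile normalization (26 to 68, with 39 without null 3F and 34 without null D6). From DIV2 to DIV4, null gave 0 on deposited TPM, 1 relative to protein-coding TPM, 1 after quantile normalization, 3 without a filter, 61 on the groups compared only and 2 with any biotype (0 to 19, with 16 without control E8). The DIV2 interaction gave 77 on deposited TPM (0 to 1 on leaving out a clone). Deposited TPM moved the median of all genes by 1.47 between genotypes at OPC and 1.93 in control from OPC to DIV2.

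Members wholly higher in null at DIV2 numbered 26 on deposited TPM and 21 after quantile normalization. As a percent of all TPM the family's share was 0.882, 3.83, 2.52, 3.02, 2.55 and 2.13 for control and null at OPC, DIV2 and DIV4 in turn. With named pseudogenes it was 18.1% in null OPCs, 9.59% and 12.3% at DIV2, and 9.45% and 9.88% at DIV4. It was 15.4% in control OPCs without Lars2 and AA474408, and 10.5% in null at DIV2 without Rpl29, Rpl34 and Rpl3. Leaving out a clone gave 9.01 to 13.3 and 15.3 to 16.1 at OPC, 7.87 to 8.54 and 10.6 to 10.8 at DIV2, and 7.72 to 8.34 and 8.26 to 8.87 at DIV4. Of the values of single genes under alternatives, 647 kept direction and call, 110 lost the call, 4 gained it and 18 turned. With closest copies, Rpl29 turned to 0.25, 0.45 and 0.16, Rpl3 to 0.0665 at OPC and 0.18 at DIV2, and Rpl34 to -0.32 at DIV4, and with named pseudogenes Rpl3 turned to 0.0666 and 0.18 and Rpl34 to -0.31. On deposited TPM at OPC, Rpl3 turned to 1.16, Rpl7a to 1.67, Rplp1 to 2.13, Rplp2 to 1.86 and Rpl7l1 to 1.65, and Rpl7l1 relative to protein-coding TPM to 0.0785. On deposited TPM from OPC to DIV2 in control, Rps16 turned to 0.91, Rpl13a to 0.99 and Rps19 to 1.0. Read depth is unknown, which limits what can be said of low members.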
